A study of Mus musculus with 24 samples.

Results

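The 6 kinases of the phosphatidylinositol 3-kinase-like (PIKK) family, Atm, Atr, Prkdc, Mtor, Smg1 and Trrap, were followed in mouse liver. They were taken by gene symbol from a table of 14293 genes, and all 6 were found, on 1 row each. The family was chosen by gene name, with its measured FPKM differences between the drug groups in view, so those differences are described by their values, intervals and counts of calls, and no member's difference carries a p-value. The study compared livers with nonalcoholic steatohepatitis, a fatty liver disease with inflammation, after different treatments. It holds 24 liver samples, 8 labelled Vehicle, 8 labelled Vutiglabridin (a synthetic analog of the licorice flavonoid glabridin) and 8 labelled Semaglutide (a drug that activates the GLP-1 receptor). Beyond tissue and treatment the labels give no strain, genotype, age, diet, dose or duration, and nothing says that samples came from separate animals. The p-values below therefore rest on the variation among these samples alone, part or all of which may be technical. Values are FPKM, a gene's sequenced fragments divided by transcript length and library size.

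PIKKs are very large serine and threonine protein kinases with a catalytic domain related to that of lipid kinases, near the end of a long chain of helical repeats. ATM responds to broken DNA ends together with the MRE11, RAD50 and NBN complex, ATR with its partner ATRIP responds to single-stranded DNA at stalled replication, and DNA-PKcs, the product of Prkdc, joins broken ends with the Ku proteins. mTOR is the nutrient- and insulin-responsive kinase of complexes mTORC1 and mTORC2, which in liver govern protein and lipid synthesis and restrain autophagy. SMG1 phosphorylates UPF1 in nonsense-mediated decay of messenger RNA, and TRRAP, which lacks kinase activity, is a scaffold of histone acetyltransferase complexes. All of them depend on the TELO2, TTI1 and TTI2 chaperone complex for folding.

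All 6 genes have long transcripts, but they fall into separate classes of base composition. Positions and lengths are from GENCODE M21 on GRCm38, whose identifiers and symbols match every row of the table. Atm lies on the minus strand of chromosome 9 at 53439149 to 53536740 and Atr on the plus strand of the same chromosome at 95857597 to 95951781. Prkdc lies on chromosome 16 at 15637866 to 15842235 (plus), Mtor on chromosome 4 at 148448611 to 148557683 (plus), Smg1 on chromosome 7 at 118131308 to 118243670 (minus) and Trrap on chromosome 5 at 144767732 to 144859778 (plus). Their longest coding transcripts measure 8102 bases in Atr, 8564 in Mtor, 9819 in Atm, 12479 in Trrap, 12647 in Prkdc and 15557 in Smg1, over 47 to 86 exons. Even the shortest exceeds 95.4% of the 11562 genes tested. The GC content of that transcript is 40.8% in Atr, 42.6% in Atm, 43.3% in Prkdc and 44.9% in Smg1, all in the lowest tertile of tested genes (under 47.1%). Trrap at 53.6% and Mtor at 54.2% lie in the highest tertile (over 53.4%). Merged over all annotated transcripts of a gene, exons measure 10109 bases in Mtor, 10338 in Atm and 13187 in Prkdc. They measure 20859 bases in Trrap, 23629 in Atr and 23984 in Smg1. FPKM values are sums over whole genes and cannot be assigned to single exons or UTRs. The exons of Atr share 178 bases with Gm24004, a small nuclear RNA gene on the same strand, which strand would not separate. They also share 726 and 462 bases with a pair of antisense genes on the other strand. The library kit keeps strand, but whether the counting used it is not given in the sources used here, so Atr carries that uncertainty.

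Promoter sequences are shown for the 3 genes with the largest semaglutide differences and for Mtor, the most abundant member, because the first 3 differed from vehicle in the same direction and Mtor did not pass. RefSeq (GRCm38.p6) gave an entry for 5 of the 6 genes, and the one for Prkdc is missing. Each line holds up to 200 bases before the RefSeq start, less any that GENCODE places inside the gene (69 in Atm and 33 in Smg1), 5′ to 3′ on the strand of the gene, with capitals for exact matches to CCAAT or the GC box CCGCCC on either strand.
Atm: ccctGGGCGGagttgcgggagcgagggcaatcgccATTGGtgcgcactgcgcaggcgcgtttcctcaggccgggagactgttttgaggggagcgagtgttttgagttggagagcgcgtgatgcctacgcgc
Smg1: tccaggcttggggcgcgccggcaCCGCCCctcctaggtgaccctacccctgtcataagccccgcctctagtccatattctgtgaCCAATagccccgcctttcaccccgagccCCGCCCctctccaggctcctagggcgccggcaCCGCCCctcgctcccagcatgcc
Atr: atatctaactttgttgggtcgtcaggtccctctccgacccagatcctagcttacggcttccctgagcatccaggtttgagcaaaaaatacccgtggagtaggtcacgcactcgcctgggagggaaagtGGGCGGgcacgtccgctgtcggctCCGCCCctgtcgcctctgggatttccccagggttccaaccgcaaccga
Mtor: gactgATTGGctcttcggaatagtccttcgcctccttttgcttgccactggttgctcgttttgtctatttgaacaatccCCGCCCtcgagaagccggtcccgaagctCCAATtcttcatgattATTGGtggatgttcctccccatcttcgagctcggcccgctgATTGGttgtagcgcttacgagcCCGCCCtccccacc
These windows are chr9:53536741-53536871 (minus) for Atm, chr7:118243671-118243837 (minus) for Smg1, chr9:95857397-95857596 (plus) for Atr and chr4:148448382-148448581 (plus) for Mtor. Over the whole 250 bases before the start, a GC box occurs in all 5 entries, Trrap included, 5 times in Smg1, and in 32.7% of 32851 promoters. CCAAT occurs 4 times in Mtor and once each in Atm and Smg1, against 33.8% of promoters with at least one match. The NRF1 core GCGCATGC occurs once in Atm, 51 bases before its start and outside the printed line, and in 2.26% of promoters. The ETS core CCGGAAG occurs once, in Mtor, 237 bases before its start and so outside the printed line (6.91% of promoters). None of the 4 motifs was found in Atm, Atr and Smg1 and absent from Mtor. The letters are a description of the windows and show no binding.

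Libraries differed in depth, and the semaglutide columns stood apart in form. Low FPKM values lay on steps of 1 fragment, which implied about 11990000 to 19870000 fragments per vehicle library, 5990000 to 15250000 in vutiglabridin and 9310000 to 12390000 in semaglutide. All 114344 semaglutide values are written with 2 decimals and a trailing space, while 0 of 114344 in either other group have that space, so a separate processing run of these samples and the drug cannot be told apart. Of 8 hepatocyte markers, summed levels ran from 32258 to 50772 FPKM over the 24 samples, and those of 8 lymphocyte markers from 2.12 to 21.3 FPKM. In semaglutide against vehicle, 4 of 7 macrophage markers, 4 of 8 stellate cell markers and 3 of 7 proliferation markers were lower, 2 of 8 endothelial and 4 of 8 hepatocyte markers were higher, and none of 6 lymphocyte or 7 cholangiocyte markers passed (limma; 1 and 0 with an unadjusted p under 0.05). In vutiglabridin against vehicle 6 of 7 macrophage, 4 of 6 lymphocyte, 3 of 8 stellate, 2 of 7 cholangiocyte and 5 of 7 proliferation markers were lower, and 4 of 8 hepatocyte and 1 of 8 endothelial markers were higher. In semaglutide against vutiglabridin 3 of 6 lymphocyte, 3 of 7 proliferation, 2 of 7 cholangiocyte, 2 of 8 stellate, 1 of 7 macrophage and 1 of 8 endothelial markers were higher and 2 of 8 hepatocyte markers lower. Their part in the results on the kinases was not tested. In such bulk tissue, fewer cells of a type and less RNA per cell cannot be told apart.

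Mtor was by far the most abundant of the 6 in every group, and the order of the others was not the same in semaglutide livers. FPKM is scaled by length, so levels were set beside each other, although the lengths used in that scaling are not known. Differences between libraries that follow length or GC content, described below, were not removed here. In vehicle the mean levels ran Mtor, Trrap, Smg1, Prkdc, Atr and Atm, from 7.76 ± 0.642 down to 0.446 ± 0.0875 FPKM (SD, n = 8). Vutiglabridin livers had the same order of means, from 7.60 ± 0.854 to 0.461 ± 0.129 FPKM (n = 8). In semaglutide it ran Mtor, Smg1, Trrap, Atm, Atr and Prkdc. Trrap and Smg1, neighbours in that order, overlapped in vehicle and vutiglabridin. Trrap was the higher of the pair in 7 of 8 vehicle and 5 of 8 vutiglabridin samples, while Smg1 was the higher in 8 of 8 semaglutide samples. Atr and Atm also overlapped in vehicle and vutiglabridin, and Atr and Prkdc in semaglutide, where Prkdc was the higher in 1 of 8 samples.

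**Figure D1:**
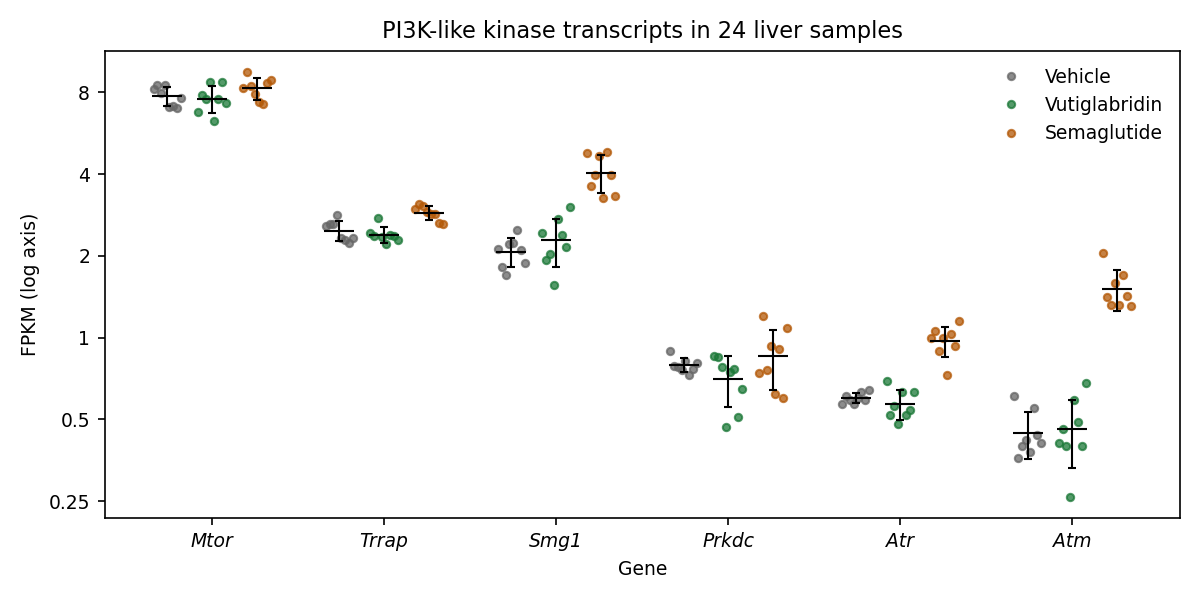
FPKM of the 6 kinase genes (log axis) in each of 24 liver samples, with 1 point per sample and black bars for the mean ± SD of 8 samples. All semaglutide points of Atm, Atr and Smg1 lie above all points of vehicle and vutiglabridin, while those of Mtor and Prkdc overlap both groups.

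Atm showed the largest proportional difference of the family. Its levels were 0.36, 0.415 and 0.61 FPKM in vehicle (lowest, median and highest of 8), 0.26, 0.435 and 0.68 in vutiglabridin and 1.31, 1.42 and 2.05 in semaglutide. Every semaglutide sample lay above every other sample. The mean in semaglutide was 3.40 times that in vehicle, and the difference in log2(FPKM + 1), a scale that understates changes of low genes, was 0.80 ± 0.06 (SE). Atm reached 0.5 FPKM in 2 of 8 vehicle, 2 of 8 vutiglabridin and 8 of 8 semaglutide samples, so it passed the filter on low values only through the group where it was high. With the longest transcript these levels correspond to a median of about 63.3 fragments in vehicle and 153 in semaglutide. Counting error alone at those numbers is 12.6% and 8.09%, against a spread between samples of 19.6% and 17.0% (coefficient of variation).

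Smg1, the decay kinase, came next. Its levels were 1.70, 2.115 and 2.49 FPKM in vehicle, 1.57, 2.275 and 3.02 in vutiglabridin and 3.27, 3.98 and 4.81 in semaglutide (lowest, median and highest). The semaglutide samples again lay above all others, with a mean 1.96 times that of vehicle and a log2 difference of 0.71 ± 0.08. Vutiglabridin samples spread more widely than vehicle samples, with a coefficient of variation of 20.1% against 12.4%, and 2 of the 8 lay above all vehicle samples. Atr, the replication stress kinase, was the tightest member in vehicle, at 0.57, 0.595 and 0.64 FPKM. It was at 0.48, 0.55 and 0.69 FPKM in vutiglabridin and at 0.73, 1.00 and 1.15 FPKM in semaglutide. All 8 semaglutide values were higher than any other sample, by a ratio of means of 1.62 against vehicle and a log2 difference of 0.30 ± 0.04.

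The other 3 members differed little or not beyond their spread. Trrap, the acetyltransferase scaffold, was at 2.24, 2.455 and 2.83 FPKM in vehicle and at 2.62, 2.885 and 3.11 in semaglutide, 16.0% higher by means. Its groups overlapped, although 6 of 8 semaglutide samples lay above all vehicle samples (log2 difference 0.16 ± 0.05). Mtor was at 6.99, 7.80 and 8.52 FPKM in vehicle, 6.28, 7.57 and 8.75 in vutiglabridin and 7.24, 8.37 and 9.52 in semaglutide. The 3 ranges of Mtor overlapped broadly, and its semaglutide difference from vehicle was 0.08 (95% interval −0.05 to 0.22). Prkdc was at 0.73, 0.785 and 0.89 FPKM in vehicle, 0.47, 0.76 and 0.86 in vutiglabridin and 0.60, 0.835 and 1.2 in semaglutide. It was the member whose semaglutide samples scattered to both sides, 4 above and 2 below all vehicle samples, with a coefficient of variation of 25.2% against 6.06% in vehicle and a difference of 0.04 (−0.09 to 0.17).

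By the limma model across 11562 genes (adjusted p under 0.05), 4 of the 6 members, Atm, Atr, Smg1 and Trrap, passed as higher in semaglutide than in vehicle, beside 14.3% of all genes. In 3 of them, Atm, Atr and Smg1, the groups did not overlap, beside 4.09% of all genes (and 1.74% not overlapping as lower, where there was no member). The same 4 passed against vutiglabridin, beside 12.6% of genes, with ratios of means of 3.29 for Atm, 1.77 for Smg1, 1.70 for Atr and a mean 20.1% higher for Trrap. There, too, Atm, Atr and Smg1 did not overlap (2.27% of genes, and 1.13% lower with no member). The comparisons share the semaglutide samples, so they are not separate evidence, and the members were chosen with these values known. Nothing is read from the counts. Prkdc and Mtor differed from vutiglabridin by 0.12 (−0.01 to 0.25) and 0.11 (−0.02 to 0.25). After rescaling each library to equal totals (TPM), Trrap no longer passed against vehicle, at 0.14 ± 0.06, and Mtor passed against vutiglabridin, at 0.22 ± 0.07.

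In vutiglabridin against vehicle none of the 6 passed in either direction in limma. None had an unadjusted p under 0.05, beside 15.3% of all genes called. With only 6 genes that count does not show that the groups were close. No member's groups were apart, beside 0.77% of genes apart as higher and 0.969% as lower. The differences in log2(FPKM + 1) were 0.09 for Smg1 (95% interval −0.09 to 0.26), 0.01 for Atm (−0.12 to 0.14), −0.03 for Atr (−0.12 to 0.06), −0.03 for Mtor (−0.16 to 0.10), −0.04 for Trrap (−0.13 to 0.06) and −0.08 for Prkdc (−0.21 to 0.06). Differences inside those intervals cannot be seen with 8 samples a group, and this scale understates changes of low genes. With a pseudocount of 0.1 the low members differed by 0.02 ± 0.14 (Atm), −0.07 ± 0.10 (Atr) and −0.17 ± 0.13 (Prkdc). In TPM Trrap passed as lower, at −0.18 ± 0.06, and all 6 differences were below 0. FPKM totals were 318267 to 352578 in vehicle and 344271 to 385601 in vutiglabridin, so that rescaling lowers vutiglabridin values as a whole.

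**Figure D2:**
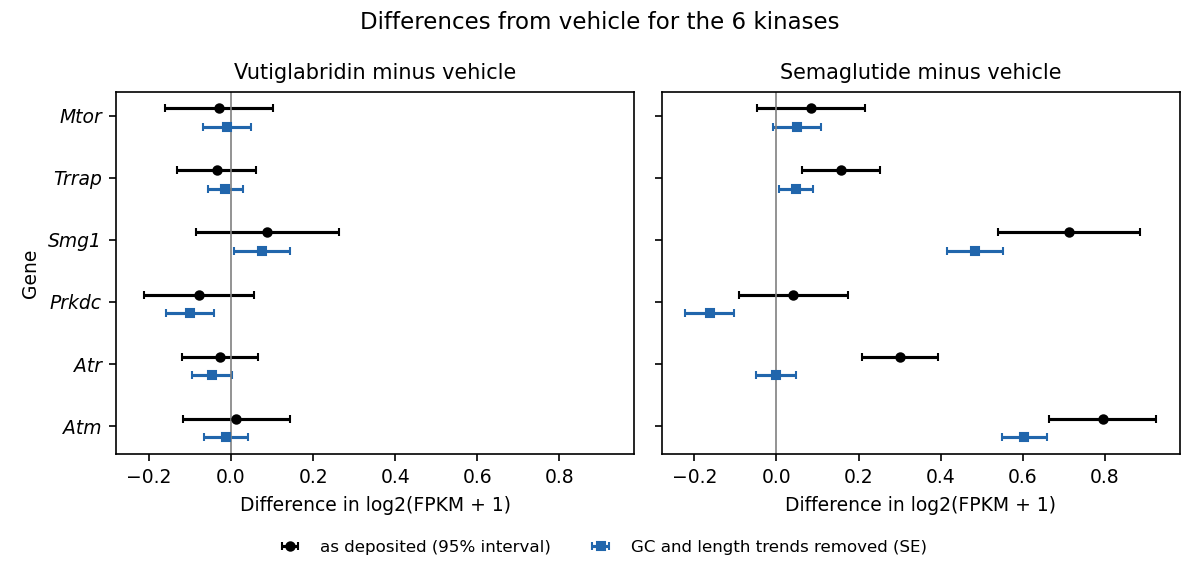
Differences from vehicle in log2(FPKM + 1) for the 6 kinase genes under vutiglabridin (left) and semaglutide (right). Circles are as deposited, with 95% intervals. Squares, with SE, are after removing each library's trends with GC content and merged exon length. Under semaglutide, Atm and Smg1 stay well above 0 either way, while Atr moves from 0.30 to about 0.

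Shares of the family's summed level do not depend on how each library was scaled. Summed over the 6 genes, levels were 14.2 ± 0.783 FPKM in vehicle, 14.02 ± 0.491 in vutiglabridin and 18.6 ± 1.17 in semaglutide (SD, n = 8 each), and the semaglutide range of 16.2 to 19.9 FPKM lay above the other groups. Atm made up 2.45% to 4.06% of that sum in vehicle samples, 1.88% to 4.67% in vutiglabridin and 7.08% to 10.3% in semaglutide. The share of Smg1 was 12.1% to 17.99% in vehicle, 11.4% to 20.8% in vutiglabridin and 18.1% to 25.9% in semaglutide, so its vehicle and semaglutide ranges were just apart. The share of Mtor was 51.6% to 57.8% in vehicle and lower, at 39.1% to 48.3%, in semaglutide, although its own mean level was not. Within each sample Atm stood at 0.533 times the level of Prkdc in vehicle (median, range 0.456 to 0.753) and at 1.80 times in semaglutide (1.18 to 2.77). Atm exceeded Prkdc in 0 of 8 vehicle, 1 of 8 vutiglabridin and 8 of 8 semaglutide samples.

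Transcript length was set beside these differences, since long genes as a class were higher in semaglutide livers. Across 11556 tested genes outside the family, Spearman's rho between the semaglutide difference from vehicle and the longest coding transcript was 0.316, and with its GC content −0.316. These are values across genes, which are no replicates of each other, and carry no p. Of 904 such genes with a transcript of at least 7000 bases, 47.1% passed as higher and 4.20% as lower, with a median difference of 0.16. Of 3045 genes under 2000 bases, 4.27% passed as higher and 16.1% as lower. Long genes in the lowest GC tertile (483) had a median of 0.27 with 64.2% higher, and long genes in the highest tertile (129) had a median of 0.03 with 17.8% higher. Length is thus shared by all 6 kinases, and low GC content by 4 of them.

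The length of the longest coding transcript did not order the 6 kinases. Prkdc and Trrap, nearly equal by that measure, differed from vehicle by 0.04 and 0.16, while the shorter Atm differed by 0.80. Merged exons give another order, with Trrap (20859 bases) longer than Prkdc (13187) and Atr (23629) close to Smg1 (23984). Atm is among the shorter members by merged exons too (10338 bases). Against the 483 long genes of low GC, only 10 had a larger semaglutide difference than Atm and 19 a larger one than Smg1. Atr lay near the middle of that class, with 217 genes above it, and Prkdc toward its lower end, with 413 above. These ranks are on the log2(FPKM + 1) scale, which understates changes of low genes. Atr and Prkdc, at means of 0.60 and 0.794 FPKM in vehicle, may therefore rank lower than by ratio (1.62 and 1.08). Against the 129 long genes of high GC, 31 lay above Trrap and 52 above Mtor. In vutiglabridin against vehicle, long genes had a median of 0.01, with 2.88% higher and 7.30% lower, while in semaglutide against vutiglabridin 45.1% were higher and 1.99% lower.

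**Figure D3:**
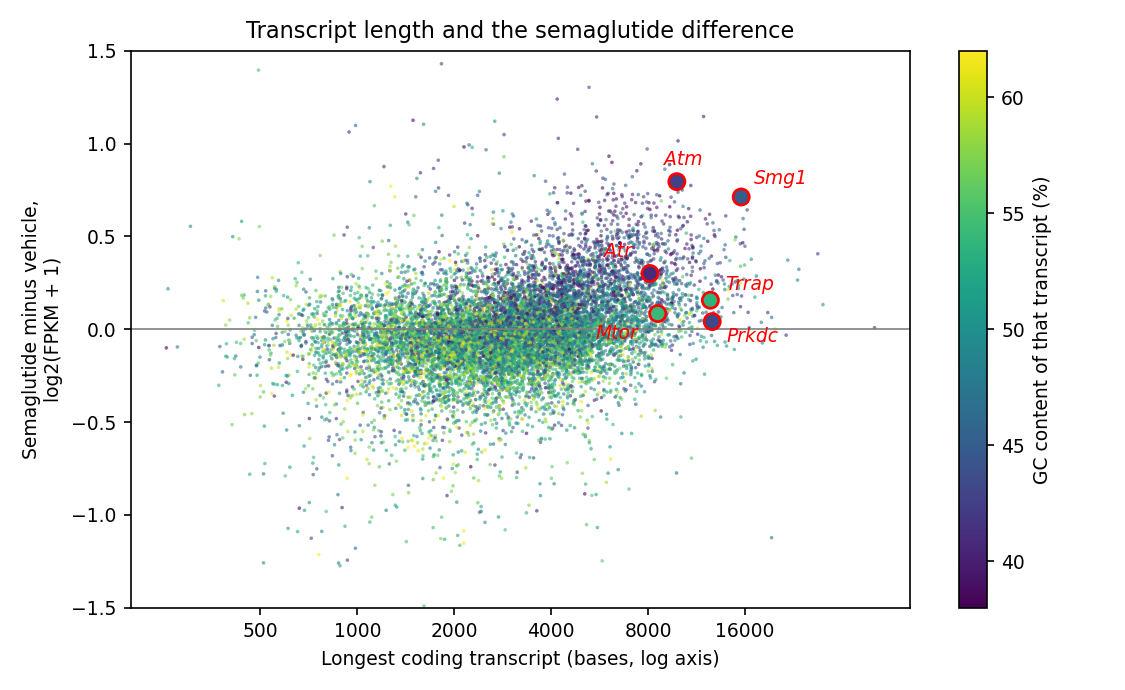
Semaglutide minus vehicle in log2(FPKM + 1) against the longest coding transcript (log axis) for the tested genes, colored by GC content, with the 6 kinases ringed in red and genes beyond 1.5 in either direction outside the frame. Atm and Smg1 sit near the upper edge of the long, GC-poor genes and Atr within them. Prkdc and Mtor lie close to 0 and Trrap somewhat higher, at 0.16.

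The differences were computed again after each library's trend with merged exon length was removed, as a description, since the members were chosen for them. Atm then differed from vehicle by 0.68 ± 0.06, Smg1 by 0.49 ± 0.07, Atr by 0.08 ± 0.04, Mtor by −0.03 ± 0.07, Trrap by −0.050 ± 0.05 and Prkdc by −0.11 ± 0.06. With trends in GC content removed as well, the differences were 0.60 ± 0.05 for Atm and 0.48 ± 0.07 for Smg1. Atr was then at −0.0010 ± 0.05 and Prkdc at −0.16 ± 0.06. With the longest transcript in place of merged exons, Atm was at 0.52 ± 0.05 and Smg1 at 0.44 ± 0.07. Atr was at 0.03 ± 0.05 and Prkdc at −0.24 ± 0.06 in that setting, which was chosen after seeing the data. Trends were fitted over all genes and removed only on the log2(FPKM + 1) scale, which understates changes of low genes. Too much may thus have been taken from low members such as Atr and Prkdc. Before removal Atr differed by 0.30 on this scale and by 0.61 with a pseudocount of 0.1. In vutiglabridin against vehicle the correction for GC content and merged exon length gave −0.10 to 0.08 over the 6. Such a correction would also remove a drug effect that follows length or GC content, and the origin of the trend was not tested.

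A pair of other gene sets was higher in semaglutide livers too, the first of long transcripts. All 14 of the giant ubiquitin ligases and deubiquitinases, such as Birc6 and Huwe1, passed as higher, with a median of 0.34. Of 10 genes of cohesin, the ring that holds sister chromatids, 7 passed as higher and 0 as lower (median 0.44). Beside both stand 14.3% of all genes higher. The median over the 6 kinases was 0.23 and over all genes −0.01. These sets were also picked with results in view, and differences between them were not tested.

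Genes that work with the kinases were examined next, as 148 tested genes in 9 lists of partners, regulators, targets and related lipid kinases. In semaglutide against vehicle 24 rose and 13 fell, 16.2% and 8.78%, beside 14.3% and 12.7% of all genes. In vutiglabridin against vehicle 5 rose and 3 fell, 3.38% and 2.03%, beside 6.53% and 8.78% of all genes. The count of 5 was 2 without vehicle replicate 1 or 5 or vutiglabridin replicate 1 or 2. It was 3 without vehicle replicate 6, 7 or 8, vutiglabridin replicate 6 or 8, or semaglutide replicate 1, 3, 5, 6 or 7. In semaglutide against vutiglabridin 14 rose and 9 fell, 9.46% and 6.08%, beside 12.6% and 11.9%. Direction went with length here as well. Of 40 partner genes with a transcript of at least 5000 bases 18 rose and 0 fell under semaglutide against vehicle, and of 108 shorter ones 6 rose and 13 fell.

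Of 9 chaperone genes that fold the family 1 rose and 0 fell under semaglutide, 11.1% beside 14.3% of all genes higher. That was Hsp90ab1, a general chaperone, which went from 395 ± 27.0 to 455 ± 41.0 FPKM (limma adjusted p = 0.0144). Under vutiglabridin none passed, and 1 had an unadjusted p under 0.05. That was Telo2, which was at 1.31 ± 0.161 FPKM in vehicle, 1.07 ± 0.233 in vutiglabridin (adjusted p = 0.0982) and 1.07 ± 0.141 in semaglutide (adjusted p = 0.0803). Against vutiglabridin none passed in semaglutide in limma, 2 had an unadjusted p under 0.05, and Hsp90aa1 had the lowest p (adjusted p = 0.0539).

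Subunits of the mTOR complexes moved in opposite directions under semaglutide while Mtor itself did not pass. Rictor, the defining subunit of mTORC2, rose from 0.935 ± 0.137 FPKM in vehicle to 1.75 ± 0.163 in semaglutide, a log2 difference of 0.51 ± 0.06 (limma adjusted p = 1.02e-06). Deptor, an inhibitor of both complexes, rose from 25.5 ± 3.31 to 36.9 ± 5.23 FPKM (adjusted p = 0.000198), and Mlst8, a subunit of both, fell from 3.45 ± 0.467 to 2.36 ± 0.298 FPKM (adjusted p = 0.000103). Rptor, the defining subunit of mTORC1, named here after its values were seen, was level at 3.59 ± 0.245 and 3.58 ± 0.176 FPKM. Of 8 such genes 2 rose, 1 fell and 5 did not pass, 25% and 12.5% beside 14.3% and 12.7% of all genes higher and lower. After removing GC and length trends Rictor differed by 0.26 ± 0.05, Deptor by 0.38 ± 0.08 and Mlst8 by −0.33 ± 0.07, all still past the threshold. Under vutiglabridin only Prr5, an mTORC2 subunit, passed, rising from 2.58 ± 0.486 to 3.24 ± 0.268 FPKM (adjusted p = 0.0399). No subunit passed as higher there without any 1 of vehicle replicates 1, 5, 6 and 8 and vutiglabridin replicates 1, 2, 4, 6, 7 and 8, and 1 passed as lower without vehicle replicate 5 or 8 or vutiglabridin replicate 7.

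Of 24 upstream regulators of mTOR 3 rose and 4 fell under semaglutide, 12.5% and 16.7% beside 14.3% and 12.7% of all genes. The count of 4 was 2 without vehicle replicate 8 or semaglutide replicate 1. Fnip1 and Fnip2, partners of folliculin at the lysosome, rose from 5.52 ± 0.734 to 9.82 ± 1.12 FPKM (adjusted p = 4.76e-06) and from 4.40 ± 0.710 to 6.44 ± 1.25 FPKM (adjusted p = 0.000511). Sesn3, a sestrin that restrains mTORC1, rose from 2.51 ± 0.211 to 3.45 ± 0.504 FPKM (adjusted p = 0.00102), but with GC and length trends removed it differed by 0.15 ± 0.06 and did not pass (adjusted p = 0.0524). Against vutiglabridin Ddit4, a stress-induced inhibitor of mTORC1, was lower in semaglutide, at 3.20 ± 0.745 and 7.60 ± 4.19 FPKM (adjusted p = 0.00423). It was also lower there than in vehicle, at 6.36 ± 1.98 FPKM (limma adjusted p = 0.0119). In vutiglabridin against vehicle none passed in limma, 2 had an unadjusted p under 0.05, and Rragd, a GTPase of amino acid sensing, had the lowest (4.61 ± 0.604 and 3.43 ± 1.26 FPKM, adjusted p = 0.0825).

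Among 14 targets of mTOR, 4 rose under each drug and 0 fell. That is 28.6%, beside 14.3% of all genes higher under semaglutide and 6.53% under vutiglabridin. The 4 under semaglutide, Eif4ebp2, Larp1, Rps6kb1 and Ulk1, have transcripts of 5213 to 6617 bases. Of all 40 partner genes of at least 5000 bases, 18 rose there. The semaglutide count was 2 without semaglutide replicate 3. The vutiglabridin count was 2 without any 1 of vehicle replicates 1, 5 and 7, vutiglabridin replicates 1, 2 and 6 and semaglutide replicates 1, 3, 5, 6, 7 and 8. Eif4ebp2, a repressor of translation initiation that mTORC1 inactivates, rose under both, from 55.5 ± 4.34 FPKM in vehicle to 69.8 ± 7.20 in vutiglabridin (adjusted p = 0.00195) and 71.4 ± 6.93 in semaglutide (adjusted p = 0.00035). Ulk1, the kinase that starts autophagy, also rose under both. It went from 14.5 ± 1.36 to 17.3 ± 1.63 FPKM under vutiglabridin (limma adjusted p = 0.00866) and to 16.5 ± 1.03 under semaglutide (adjusted p = 0.0372). Lpin1, a phosphatidate phosphatase, rose under vutiglabridin from 27.6 ± 10.7 to 46.1 ± 19.7 FPKM (adjusted p = 0.0471) and was lower in semaglutide than in vutiglabridin (22.4 ± 6.21 FPKM, adjusted p = 0.00641). Larp1, which binds messages of the translation machinery, rose under semaglutide from 20.2 ± 2.10 to 25.6 ± 1.05 FPKM (adjusted p = 0.00105), and Rps6kb1, the S6 kinase, from 3.65 ± 0.288 to 4.20 ± 0.460 FPKM (adjusted p = 0.0327). With GC and length trends removed Rps6kb1 differed by −0.06 ± 0.05 and did not pass (adjusted p = 0.317). Both drugs were compared with the same vehicle samples. All of these values are RNA levels, and neither protein nor kinase activity was measured here.

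Of 20 direct partners of the DNA damage kinases 0 rose and 2 fell (10%, beside 12.7% of all genes lower) under semaglutide against vehicle in limma, and 5 had an unadjusted p under 0.05. The count of 0 was 1 without vehicle replicate 5, semaglutide replicate 5 or semaglutide replicate 7. The count of 2 was 1 without any 1 of vehicle replicates 1, 2, 3 and 7 and semaglutide replicates 2 and 4. Those that fell were Rpa2, a single-strand binding subunit (4.04 ± 0.484 to 2.98 ± 0.664 FPKM, adjusted p = 0.00311), and Rad9a, of the checkpoint clamp (2.15 ± 0.294 to 1.63 ± 0.257 FPKM, adjusted p = 0.0336). With GC and length trends removed Rad9a differed by −0.16 ± 0.09 and did not pass (adjusted p = 0.184). Named here after their values were seen, Atrip stood at 1.36 ± 0.185 FPKM in vehicle and 1.39 ± 0.108 in semaglutide, Nbn at 9.05 ± 0.940 and 8.78 ± 1.21, and the Ku gene Xrcc5 at 12.7 ± 1.35 and 12.8 ± 1.73. Topbp1, an activator of ATR, fell under vutiglabridin from 1.71 ± 0.107 to 1.25 ± 0.217 FPKM (adjusted p = 0.00183), and was higher in semaglutide, at 1.76 ± 0.168 FPKM, than in vutiglabridin (adjusted p = 0.000413). Mre11a, a nuclease that recruits ATM, was also higher in semaglutide than in vutiglabridin (1.76 ± 0.238 and 1.37 ± 0.275 FPKM, adjusted p = 0.0278), a call lost with GC and length trends removed (adjusted p = 0.0543).

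Among 10 tested targets of these kinases, Rif1 and Chek2 went opposite ways. Rif1, which is recruited to breaks downstream of ATM, rose from 0.716 ± 0.123 FPKM in vehicle to 1.72 ± 0.342 in semaglutide (log2 difference 0.66 ± 0.07, adjusted p = 1.02e-06) and differed by 0.41 ± 0.05 after GC and length trends were removed. Chek2, the checkpoint kinase activated by ATM, fell from 1.48 ± 0.265 to 0.936 ± 0.166 FPKM under semaglutide (adjusted p = 0.004) and to 0.909 ± 0.285 under vutiglabridin (adjusted p = 0.00406). Mdm2, the ubiquitin ligase of p53, fell under semaglutide from 7.67 ± 0.730 to 6.53 ± 0.523 FPKM (adjusted p = 0.0243). Of the 10, 1 rose and 2 fell under semaglutide, 10% and 20% beside 14.3% and 12.7% of all genes. The count of 2 that fell was 1 without vehicle replicate 1. Chek1, Clspn and Fancd2 were below the filter on low values and were not tested. Proliferation markers, with which Chek2 and Topbp1 are often expressed, summed to 17.7 to 24.7 FPKM in vehicle, 13.0 to 18.3 in vutiglabridin and 14.5 to 19.6 in semaglutide, and their part was not tested.

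Of 19 genes of nonsense-mediated decay around SMG1, 4 rose and 0 fell under semaglutide, 21.1% beside 14.3% of all genes higher. The count of 4 was 2 without vehicle replicate 7, semaglutide replicate 1 or semaglutide replicate 4. Smg6, its endonuclease, rose from 4.20 ± 0.356 to 5.16 ± 0.508 FPKM (adjusted p = 0.0112), and Gspt1, a release factor, from 15.8 ± 1.05 to 18.4 ± 2.14 (adjusted p = 0.024). Upf1, the substrate of SMG1, named after its value was seen, was at 18.3 ± 1.87 and 17.5 ± 1.47 FPKM (adjusted p = 0.505). Under vutiglabridin none passed in limma and 1 had an unadjusted p under 0.05. In semaglutide against vutiglabridin Gspt1 alone passed (adjusted p = 0.0231). That count of 1 was 0 without semaglutide replicate 4, and 2 without vutiglabridin replicate 1 or 7 or semaglutide replicate 5 or 6.

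The acetyltransferase complexes that hold TRRAP changed in part. Of 33 genes 7 rose and 3 fell under semaglutide against vehicle, beside 14.3% and 12.7% of all genes. Mbtd1, a subunit of the TIP60 complex, rose from 1.25 ± 0.131 to 1.77 ± 0.224 FPKM (adjusted p = 0.00024), Kat2b, an acetyltransferase, from 15.1 ± 1.26 to 20.5 ± 2.66 (adjusted p = 0.0012) and Supt3, a SAGA subunit, from 1.53 ± 0.184 to 2.18 ± 0.376 (adjusted p = 0.00511). Once GC and length trends were removed Mbtd1 differed by 0.03 ± 0.06 and no longer passed (adjusted p = 0.694), while Kat2b did, at 0.40 ± 0.08 (adjusted p = 0.000442). Epc2 was higher and Mrgbp lower in semaglutide than in vutiglabridin, both TIP60 subunits, at 4.06 ± 0.490 against 3.27 ± 0.515 FPKM and 2.23 ± 0.316 against 2.80 ± 0.457 FPKM (adjusted p = 0.014 and 0.0147). Against vehicle, at 3.30 ± 0.295 and 2.80 ± 0.216 FPKM, Epc2 was likewise higher and Mrgbp lower in semaglutide (limma adjusted p = 0.0208 and 0.0111). Both calls on Mrgbp were lost with GC and length trends removed (adjusted p = 0.0733 against vutiglabridin and 0.0712 against vehicle). None of the 33 passed in vutiglabridin against vehicle in limma, 5 had an unadjusted p under 0.05, and Eny2, a SAGA subunit, was nearest (adjusted p = 0.0535).

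The lipid kinases, relatives of the family with shorter proteins, included 2 that rose and 1 that fell of 11 under semaglutide. Those are 18.2% and 9.09%, beside 14.3% and 12.7% of all genes. Pik3c2a, a class II enzyme, rose from 3.68 ± 0.545 to 6.53 ± 1.10 FPKM (log2 difference 0.68 ± 0.09, adjusted p = 3.88e-06), and Pik3ca, a catalytic subunit of insulin-responsive PI3-kinase, from 5.17 ± 0.392 to 6.67 ± 0.551 FPKM (adjusted p = 0.00033). With GC and length trends removed Pik3c2a still passed, at 0.42 ± 0.05 (adjusted p = 3.32e-06), and Pik3ca, at 0.11 ± 0.04, did not (adjusted p = 0.0546). Pik3cd, the catalytic subunit typical of leukocytes, fell under both drugs, from 2.57 ± 0.760 to 1.54 ± 0.317 FPKM in semaglutide (adjusted p = 0.00454) and 1.53 ± 0.442 in vutiglabridin (adjusted p = 0.00644). Macrophage markers, which are leukocyte genes, summed to 212 to 492 FPKM in vehicle, 129 to 266 in vutiglabridin and 134 to 267 in semaglutide, and their part in the fall was not tested. Pi4k2a, a phosphatidylinositol 4-kinase, was lower in semaglutide than in vutiglabridin (10.9 ± 0.986 and 13.3 ± 1.39 FPKM, adjusted p = 0.00344).

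Within groups, Atm and Smg1 varied together from sample to sample. Each value was taken as its deviation from the mean of its group, which leaves out the group differences used to choose the family, and 15 pairs of members were compared over 24 samples. Atm and Smg1 gave Pearson's r = 0.81 (2-sided permutation p = 3e-05 from 100000 resamples within groups, adjusted p = 0.00045) and Spearman's rho = 0.76 (p = 0.00019, adjusted p = 0.00285). Without the 2 samples farthest from the median of Atm, r was 0.78. The values within vehicle, vutiglabridin and semaglutide were 0.53, 0.92 and 0.84, above 0 in each group. In vehicle the relation was loose. Its replicate 1, the highest in Atm at 0.61 FPKM, was near the median of Smg1 at 2.13. Vehicle replicate 5, second highest in Smg1 at 2.24 FPKM, was at 0.38 in Atm. Removing GC and length trends lowered r to 0.58.

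No other pair passed after adjustment over the 15. Mtor and Smg1 had r = −0.53 and rho = −0.54 (permutation p = 0.0147 and 0.0115, adjusted p = 0.0736 and 0.0861), with −0.44, −0.72 and −0.34 in the 3 groups and −0.50 without the 2 farthest samples. Atr and Prkdc had r = 0.64 and rho = 0.51 (permutation p = 0.00883 and 0.0350, adjusted p = 0.0662 and 0.175). That pair was at −0.32 in vehicle, 0.47 in vutiglabridin and 0.78 in semaglutide. The points of every pair share their libraries, and with them depth and any bias by length or GC content.

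**Figure D4:**
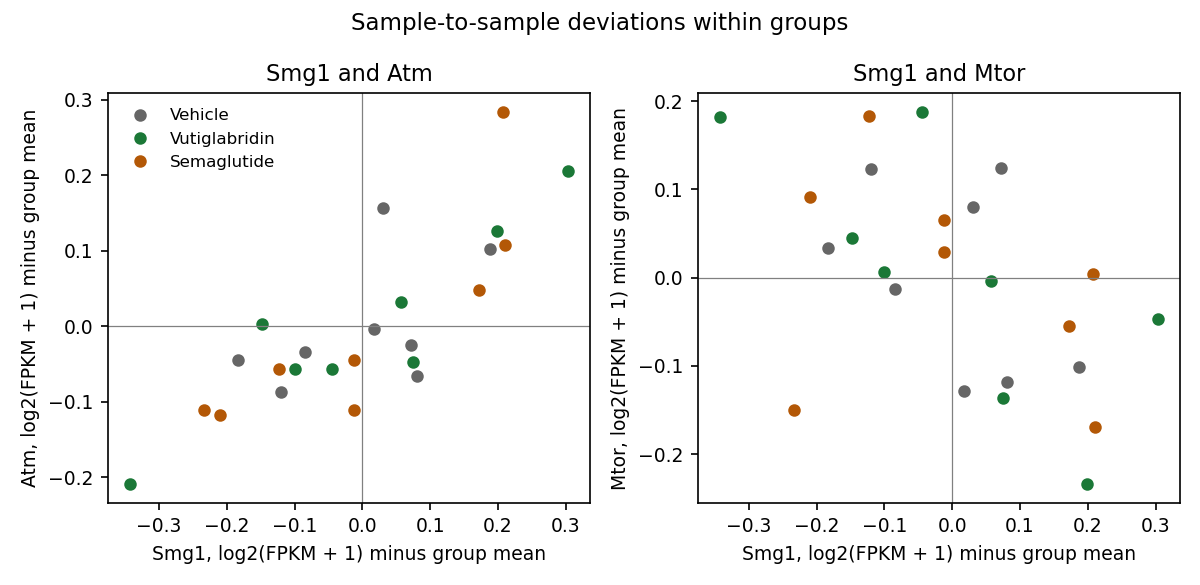
Deviations of Atm (left) and Mtor (right) from their group means against those of Smg1, in log2(FPKM + 1), with 1 point per liver sample and colors for the 3 groups. Atm tends to be high where Smg1 is high (r = 0.81 over 24 samples), whereas Mtor tends the other way (r = −0.53).

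The mean of the 6 kinases was also set against the median of the 2602 other tested genes with at least 7000 bases of merged exons, within each group of 8. Pearson's r was 0.30 in vehicle (exact permutation p = 0.443, adjusted p = 0.443 over 3 groups), 0.87 in vutiglabridin (p = 0.0233, adjusted p = 0.0349) and 0.85 in semaglutide (p = 0.00841, adjusted p = 0.0252). Spearman's rho was 0.38, 0.36 and 0.62 (exact permutation p = 0.36, 0.389 and 0.115, adjusted p = 0.389, 0.389 and 0.345). Without the 2 samples farthest from the median, which were vutiglabridin replicates 4 and 8 and semaglutide replicates 5 and 7, r was −0.64 and 0.22, so on the FPKM scale both relations rest on those samples. In TPM r was 0.94 and 0.93 (exact permutation, adjusted p = 0.00848 and 0.00885), and rho 0.81 and 0.79 (adjusted p = 0.0279 for both). Without the 2 samples farthest in TPM, vutiglabridin replicates 1 and 4 and semaglutide replicates 4 and 5, r was 0.86 and 0.82. TPM divides every gene of a library by the same total, which moves kinases and long genes together and can raise r. Every pair of members also had a higher r in TPM, as Atr and Trrap, at −0.17 in FPKM and 0.16 in TPM. The part of that shared divisor was not tested. In vehicle TPM gave r = 0.77 (adjusted p = 0.0229), rho = 0.86 (adjusted p = 0.0279) and 0.72 without the 2 farthest. In vehicle r was 0.59 without replicates 5 and 6. Over all 24 group-centred samples, r with the long-gene median was 0.64 for Atm, 0.62 for Smg1, 0.58 for Atr and 0.45 for Prkdc. For Trrap and Mtor, the GC-rich members, it was −0.0082 and −0.13. These 6 values are a description with no p.

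Genes whose within-group pattern was most like the mean of the family were Itsn2 (Pearson's r = 0.86), Trim44 (0.81), Xpo1 (0.80), Zfp950 (0.80), Mpdz (0.79) and Birc6 (0.79), out of 10177 genes with a mean of at least 1 FPKM over 24 samples. Nearest to single members were Srpk2 (0.86) and Zfp397 (0.82) for Atm, Cdc14b (0.86) and Mdm4 (0.85) for Smg1, Dmd (0.81) and Birc6 (0.78) for Atr and Hlcs (0.79) and Cc2d2a (0.77) for Prkdc. Mtor was matched by Dph1 (0.73) and Ift46 (0.72), and Trrap by Nr1d1 (0.69) and Spats2 (0.67), whose transcripts are shorter, at 2139 to 4169 bases. These correlations are the highest of many, all share the 24 libraries, and no p is given.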

How the data were processed

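RNA from 24 mouse liver samples (3 groups of 8, grouped by the titles in the labels) was made into stranded mRNA libraries and read in pairs, per the labels' protocols. The authors deposited FPKM values per gene. The submitters' processing notes list the tools HISAT2, StringTie and DESeq2. What each tool did, its version, the build and the choice of genes were not given in the sources used here. Lengths, GC content and positions came from GENCODE M21.

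A level of 0.5 FPKM or more was required in 8 or more samples, which 11562 of 14293 genes met. These entered 1 limma model (limma 3.58.1, R 4.3.3) of log2(FPKM + 1) on the 3 groups, with a mean trend, moderated 2-sided tests and Benjamini-Hochberg adjustment within each comparison (threshold 0.05). It was tested on simulated data. All 6 kinases passed the filter. Per-library trends with merged exon length and GC content were removed with splines of 5 degrees of freedom. Correlations used permutation tests in Python 3.11.15 with scipy 1.17.1.

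Depth was implied from the steps of low FPKM values in genes with 1 annotated transcript and at most 1500 bases of exons. At the step that fitted best, all values used were whole fragments to within 0.2, so fragment numbers are approximate and recovered counts were not tested. Libraries of a group correlated at 0.975 to 0.993, with at most 3.15% identical values in a pair, and each was counted as 1 sample.

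Partners named are, per list and comparison, up to 3 called genes with the lowest adjusted p, or the one with the lowest p where none passed, apart from those the text says were named after their values were seen, and not every gene the rule allows is named (1 is not reported here). Genes most like the family were the 6 with the highest r to its mean and the 2 per member. The kinases and lists were chosen with earlier results of these data known. Other pseudocounts, filters, scalings, spread estimates, sample weights, a replicate block and the omission of each sample were tried.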

Additional observations from a re-analysis of the deposited data

Results flagged for a closer look

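Vutiglabridin replicate 3 had 2.77 FPKM of Trrap, far above the other 7 samples of its group, whose highest was 2.44 FPKM. The gap was 0.589 of the whole range of the group, over the limit of 0.526 for 8 samples in Dixon's test. Chance flags about 1 group in 20, and 18 groups (6 genes in 3 groups) were looked at. The sample had about 15250000 implied fragments, the most of its group.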

How the results depend on the processing

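The 4 kinases higher in semaglutide than in vehicle or vutiglabridin were 4 whichever sample was left out. They were 2 in both comparisons with a mean of at least 1 FPKM, which keeps fewer members in the test, 2 with GC and length trends removed, with or without the replicate block, and 2 with GC content and the longest transcript. Removing the length trend alone gave 2 against vehicle. Prkdc was then the 1 member lower than vehicle with GC and either length trend removed, and Trrap the 1 lower in vutiglabridin under TPM. Trend removal on the log2(FPKM + 1) scale may take too much from low genes such as Prkdc and Atr. Atr turned to −0.0010 against vehicle with GC and length trends removed, also with the replicate block, and with the length trend alone Trrap turned to −0.050 against vehicle and −0.0081 against vutiglabridin. Of partner genes in vutiglabridin against vehicle, 5 higher became 1 under TPM, 9 with trends removed and the replicate block and 8 with GC and the longest transcript, and 3 lower became 29 under TPM and 5 with no filter or with quantile normalization. Leaving out 1 sample gave 2 to 5 higher and 3 to 4 lower. For semaglutide against vehicle, TPM gave 15 higher in place of 24 (19 to 26 and 11 to 14 lower with 1 sample left out). Against vutiglabridin TPM gave 30 higher and 3 lower in place of 14 and 9, and 14 were lower with GC and length trends removed (12 to 16 and 7 to 12 with 1 left out). The cause of these shifts was not tested. Under TPM the kinases and the long genes share each library's divisor. The kinases followed the long genes in vehicle under that scaling (r = 0.77, exact permutation adjusted p = 0.0229, range over settings 0.0229 to 0.443). In vutiglabridin that relation was lost with a pseudocount of 0.1 (r = 0.85, adjusted p = 0.0550) or a limit of 5000 bases (r = 0.83, adjusted p = 0.0512; range 0.00848 to 0.0550), and in semaglutide it ranged from 0.00885 to 0.0301. Same-numbered samples correlated at −0.247 to 0.286 in their deviations (11 of 24 pairs over 0.1), and 8 of 48 best matches had the same number. From vehicle to vutiglabridin it was 3 of 8. No clear pairing by number was seen, but these values cannot exclude a shared block. With the replicate block 4 kinases were higher in semaglutide than in vehicle and 23 partner genes higher and 13 lower, and no count moved by over 1.5 times. The setting with the longest transcript was chosen after seeing the data. By the longest transcript, Atm and Atr had the fewest implied fragments in vehicle, at medians of 63.3 and 68.6. For Atr that implies a counting error of 12.1%, above its spread of 4.27% between vehicle samples. Its merged exons measure 23629 bases against 8102 in that transcript, so its fragments may be understated. For Prkdc counting error and spread were 8.51% and 6.06%. The reason was not tested.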
